A study of Mus musculus with 2 samples.

Results

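Selectins and leukocyte adhesion immunoglobulins are the 9 genes Sele, Selp, Vcam1, Icam1, Icam2, Madcam1, F11r, Jam2 and Jam3, taken by symbol from the 55573 genes listed in the deposited tables. RNA-seq was made of mesenteric arteries of C57BL/6 wild type mice, 10 weeks old, with 1 library from arteries in 5 mM K+ (control) and 1 library from arteries depolarized with 60 mM K+, both labelled 60 min. Each library pooled tissue of 2 mice, and per the methods all solutions held tetrodotoxin, which silences autonomic nerves. The methods also describe control arteries as the distal part of a ligated bed, harvested after incubation without perfusion and before the rest was perfused with high K+. By that account segment, time, flow and K+ cannot be told apart. The study's results instead describe arteries of both conditions as perfused. The genes were chosen by their place in leukocyte adhesion and with their reads in these same libraries already known, since the study had singled out Sele, Selp, Icam1 and Vcam1. The differences between the 2 libraries are therefore a description, with no test, no replicate and no p-value.

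Leukocytes leave the blood in steps. Selectins on the vessel wall bind sugar ligands and make leukocytes roll, immunoglobulin-like molecules such as ICAM-1 and VCAM-1 then bind leukocyte integrins and hold the cells, and junctional adhesion molecules help them pass between endothelial cells. E-selectin and VCAM-1 are classically made by inflamed endothelium upon new transcription, P-selectin is also stored in Weibel-Palade bodies, and ICAM-2 and the junctional adhesion molecules are known as constitutive endothelial proteins. VCAM-1 and ICAM-1 can also be made by smooth muscle.

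Counted reads came to 10480918 for control and 11289598 for depolarized arteries, and TMM scaling by edgeR gave factors of 1.07 and 0.930. Smooth muscle markers were found in full (8 of 8), with 187183 and 199779 reads on Acta2, and so were endothelial markers (12 of 12), with 19497 and 25719 reads on Pecam1, although Emcn had only 21 and 11 reads. Summed over the 12 endothelial markers there were 40941 reads in control and 52268 in depolarized arteries, a log2(fold-change) of 0.45, compared with 0.13 for the summed smooth muscle markers. In a bulk sample, fewer cells of a type and less RNA per cell cannot be told apart. Neutrophil and lymphocyte markers were close to absent from both libraries. Per the methods, the arterial beds had been excised and flushed of blood before the treatments. The 8 neutrophil markers together had 3 reads and 1 read, with 5 of 8 at 0 in both, and the 11 lymphocyte markers had 26 and 12 reads, with Ptprc, the common leukocyte antigen, at 12 and 2. Of 12 macrophage markers 11 had at least 10 reads, with a summed 2763 and 2181 reads, of which Mertk alone had 1936 and 1562 and Lyve1, which lymphatic endothelium also makes, 318 and 135.

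Promoter sequences are shown first, as the context of 3 genes that rose (Sele, Selp and Icam1) and of Madcam1, which was nearly silent. RefSeq promoter windows on GRCm38.p6, from 250 bases before to 50 bases after a transcription start, were held for 5 of the 9 genes (Sele, Selp, Icam1, F11r and Madcam1). Searched were an NF-kB motif (GGG, any 5 bases, CC), its longer form (GGGA, any 4 bases, CC), the full CRE TGACGTCA, the short CRE TGACG and the AP-1 motif TGANTCA, all on both strands, and the TATA box TATAAA on the strand of the gene. Both NF-kB forms overlap by construction, as do both CRE forms. The 250 bases upstream of each start are printed 5′ to 3′ on the strand of the gene, which is the plus strand for all of these, and capitals mark every match. Positions below are counted from the start, with the first base upstream at -1.
Sele, chr1:164047984-164048233: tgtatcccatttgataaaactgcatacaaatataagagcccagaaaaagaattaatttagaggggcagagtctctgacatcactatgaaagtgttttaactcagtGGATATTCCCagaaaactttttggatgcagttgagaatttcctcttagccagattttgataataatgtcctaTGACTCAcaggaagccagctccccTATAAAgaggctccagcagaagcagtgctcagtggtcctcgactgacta
Selp, chr1:164115014-164115263: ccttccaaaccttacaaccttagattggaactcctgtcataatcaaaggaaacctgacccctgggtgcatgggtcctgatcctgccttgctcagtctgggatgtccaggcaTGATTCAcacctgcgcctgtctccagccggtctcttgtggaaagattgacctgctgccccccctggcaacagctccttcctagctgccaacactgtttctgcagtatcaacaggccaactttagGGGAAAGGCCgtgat
Icam1, chr9:21015690-21015939: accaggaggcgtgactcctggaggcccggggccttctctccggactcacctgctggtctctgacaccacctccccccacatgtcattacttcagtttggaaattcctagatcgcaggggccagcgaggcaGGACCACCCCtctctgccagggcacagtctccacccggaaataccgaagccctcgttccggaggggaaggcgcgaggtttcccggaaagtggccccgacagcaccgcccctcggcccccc
Madcam1, chr10:79664309-79664558: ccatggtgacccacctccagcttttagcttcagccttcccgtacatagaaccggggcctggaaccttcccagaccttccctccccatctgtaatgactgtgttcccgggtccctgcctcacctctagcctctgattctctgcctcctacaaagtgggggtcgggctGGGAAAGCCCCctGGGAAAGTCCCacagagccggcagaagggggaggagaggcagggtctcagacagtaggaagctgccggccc

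The Sele window held an NF-kB match in its longer form on the opposite strand from -145 to -136, an AP-1 match from -73 to -67 and a TATA box from -49 to -44. The Selp window held an AP-1 match from -139 to -133 and the longer NF-kB form from -15 to -6, with no TATA box. In Icam1 the only match to the searched NF-kB letters, from -120 to -111, had the short form, and TATAAA lay downstream of the annotated start, from 14 to 19. Madcam1, which was barely transcribed in these arteries (below), carried overlapping NF-kB matches from -84 to -74 and from -71 to -61. Of the 32851 promoter windows in the table, 50.8% held the NF-kB motif, 20.7% its longer form, 7.81% the AP-1 motif and 8.32% TATAAA. NF-kB matches were found in 5 of 5 adhesion windows, the longer form in 4 (not in Icam1) and AP-1 in 3 (F11r, Sele and Selp). With 0 of 5, neither CRE form was found, and these occur in 1.79% (full) and 20.8% (short) of all windows. A match is a run of letters and not a measured binding site, and NF-kB sites with other letters are missed by this search.

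E-selectin (Sele) showed the largest difference of the 8 genes with at least 10 reads. Its reads rose from 72 in control to 1288 in depolarized arteries, from 2.36 to 39.2 FPKM (fragments per kilobase of gene and per 1000000 reads). After TMM scaling this is 19.2-fold, a log2(fold-change) of 4.26 with a 95% exact (Clopper-Pearson) counting interval of 3.92 to 4.63. Counting intervals cover counting error only, not the spread between mice. Ordered from the largest increase, Sele ranked 21 of the 14829 genes whose reads in both libraries summed to 10 or more.

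P-selectin (Selp) had 321 reads in control and 1996 in depolarized arteries, or 22.3 and 129 FPKM. The log2(fold-change) came to 2.74 (2.57 to 2.91 by counting error), a 6.67-fold difference and rank 76. Although Selp rose less than Sele in ratio, it remained the higher selectin by deposited FPKM, at 9.46 times Sele in control and 3.29 times in depolarized arteries. This lead rests on the gene lengths behind the FPKM (below). By the union of annotated exons, Selp and Sele lay at 6.94 and 2.36 FPKM-like units in control arteries. In depolarized arteries they were nearly alike, at 40.1 and 39.2. The ratio of Selp to Sele reads in 60 mM K+ was 0.348 of that in 5 mM K+ (counting interval 0.263 to 0.455), a comparison that no scaling between libraries can move. Selp is also made by megakaryocytes and carried by platelets. Among 7 platelet markers, Gp5 and Gp6 were at 0 in both libraries, Ppbp had 2 and 0 reads, Gp9 had 1 and 0 and Pf4 had 21 and 8. Itga2b was the marker that moved with Selp, with 7 and 45 reads, and its part in the result was not tested.

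ICAM-1 (Icam1), a ligand of leukocyte beta2 integrins, had 964 reads in control and 6904 in depolarized arteries, or 38.8 and 258 FPKM. This was a 7.68-fold difference, or 2.94 in log2(fold-change) (2.84 to 3.04 by counting error), and rank 65. VCAM-1 (Vcam1), which binds the integrin alpha4 beta1, had the most reads of the 9 genes in both libraries, 2740 and 12580, or 96.5 and 411 FPKM. At 4.93-fold, or 2.30 in log2(fold-change) (2.24 to 2.36 by counting error), Vcam1 was the smallest of the 4 large increases and ranked 132. The ratio of Vcam1 to Icam1 fell to 0.641 of its control value (counting interval 0.592 to 0.694), from 2.48 to 1.59 in FPKM.

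ICAM-2 (Icam2), a second integrin ligand that endothelium makes at rest, differed less between the libraries. It had 560 and 750 reads, or 75.8 and 94.2 FPKM, and TMM-scaled reads gave 0.52 in log2(fold-change) (0.36 to 0.68 by counting error). Scaled to total counts this was 0.31, and to Ppia and Hprt 0.01. In control arteries Icam1 stood at 0.512 times the FPKM of Icam2, and in depolarized arteries at 2.74 times, so the order of these ICAM genes by FPKM was inverted. This inversion rests on the length of 705 bases behind the FPKM of Icam2, since by union exon length (1904 bases) Icam1 was the higher gene in control arteries already, at 36.2 against 28.1 FPKM-like units. The change of that ratio was 5.35-fold (counting interval 4.69 to 6.09). Madcam1, the addressin of gut and lymphoid venules, had 1 read in control and 2 in depolarized arteries. Both counts are within the floor of 3 counts, so no fold-change is given. Lymph node and high endothelial venule genes were also scarce: Glycam1 and Chst4 were at 0 in both libraries, which allows up to 0.266 CPM (reads per 1000000) in control and 0.286 in depolarized arteries, while Ccl19 had 76 and 75 reads.

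The junctional adhesion molecules lay close together. F11r, which encodes JAM-A, had 642 and 787 reads (50.7 and 57.8 FPKM), and its reads after TMM scaling gave 0.40 in log2(fold-change) (0.24 to 0.55 by counting error). Jam3 had 293 and 369 reads (26.1 and 30.5 FPKM) and a value of 0.43 (0.21 to 0.66). Jam2 had the most reads of the 3, 1608 and 1727, and its FPKM of 74.5 and 74.3 were nearly alike. Its reads after TMM scaling gave 0.20 in log2(fold-change) (0.11 to 0.30). Jam2, F11r and Jam3 had positive values with TMM, but scaled to Ppia and Hprt, the housekeeping genes of the qPCR in the study, these were -0.30, -0.11 and -0.07, and with total counts that of Jam2 was -0.0042, so that no direction is given for them.

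**Figure D1:**
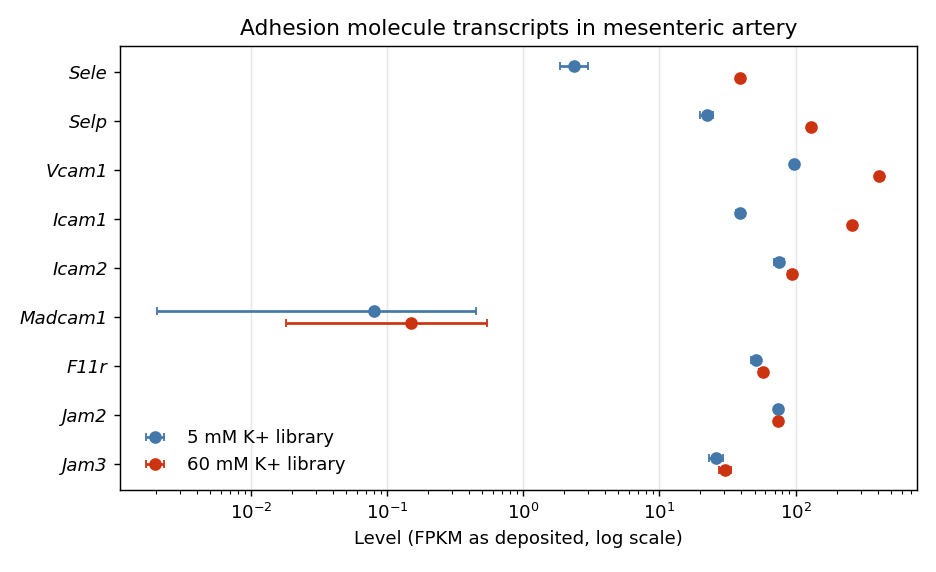
FPKM of the 9 genes on a log axis in the 5 mM K+ library (blue) and the 60 mM K+ library (red), 1 library each, with 95% exact Poisson counting intervals. Sele, Selp, Vcam1 and Icam1 are far to the right in 60 mM K+ (Sele at 2.36 and 39.2), Icam2, F11r, Jam2 and Jam3 lie close in both, and Madcam1 is near 0.

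With a threshold of 1 on the log2(fold-change), the value the study used, 4 of the 8 genes that had at least 10 reads were above 1 (Sele, Icam1, Selp, Vcam1) and 0 were below -1. Of all 14829 genes, 5.54% were above 1 and 5.86% below -1. The whole counting interval lay above 1 in 4 of the 8 genes and in 1.77% of all 14829 genes. Because the genes were chosen with these reads known, nothing is read from either contrast. The values fell apart around a gap between Vcam1 at 2.30 and Icam2 at 0.52. The median over the 8 genes was 1.41, a value that no single gene had, compared with -0.0047 over all genes.

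To set these genes against the amount of endothelium in each preparation, their reads were divided by the summed reads of the 12 endothelial markers. By qPCR the study found comparable induction after removal of the endothelium, and it proposes vascular myocytes as the main source. The cells that made these transcripts were not tested here. For every 1000 marker reads there were 1.76 Sele reads in control and 24.6 in depolarized arteries, a 14.0-fold difference (counting interval 11 to 18). On the same scale the difference was 4.87-fold for Selp (4.32 to 5.50), 5.61-fold for Icam1 (5.24 to 6.01) and 3.60-fold for Vcam1 (3.44 to 3.76). Thus the 4 increases were smaller by this measure than by TMM, and all remained above 3-fold. The constitutive genes came near 1: Icam2 at 1.05 (0.938 to 1.17), Jam3 at 0.986 (0.843 to 1.15), F11r at 0.960 (0.863 to 1.07) and Jam2 at 0.841 (0.785 to 0.902). The intervals of Icam2, Jam3 and F11r included 1, while that of Jam2 lay below it. The endothelial markers themselves did not move as a block, from -1.10 for Kdr to 1.10 for Nos3 in log2(fold-change), and against Cdh5 alone the Sele difference was 10.8-fold and that of Vcam1 2.77-fold. Against Cdh5 alone Icam2 was at 0.809 (0.713 to 0.919), Jam3 at 0.761 (0.643 to 0.901), F11r at 0.740 (0.655 to 0.837) and Jam2 at 0.649 (0.592 to 0.711), all below 1. Against Pecam1 alone the intervals of Icam2, Jam3 and F11r included 1. In depolarized arteries Pecam1 had 25719 and Vwf 11820 of the 52268 marker reads.

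**Figure D2:**
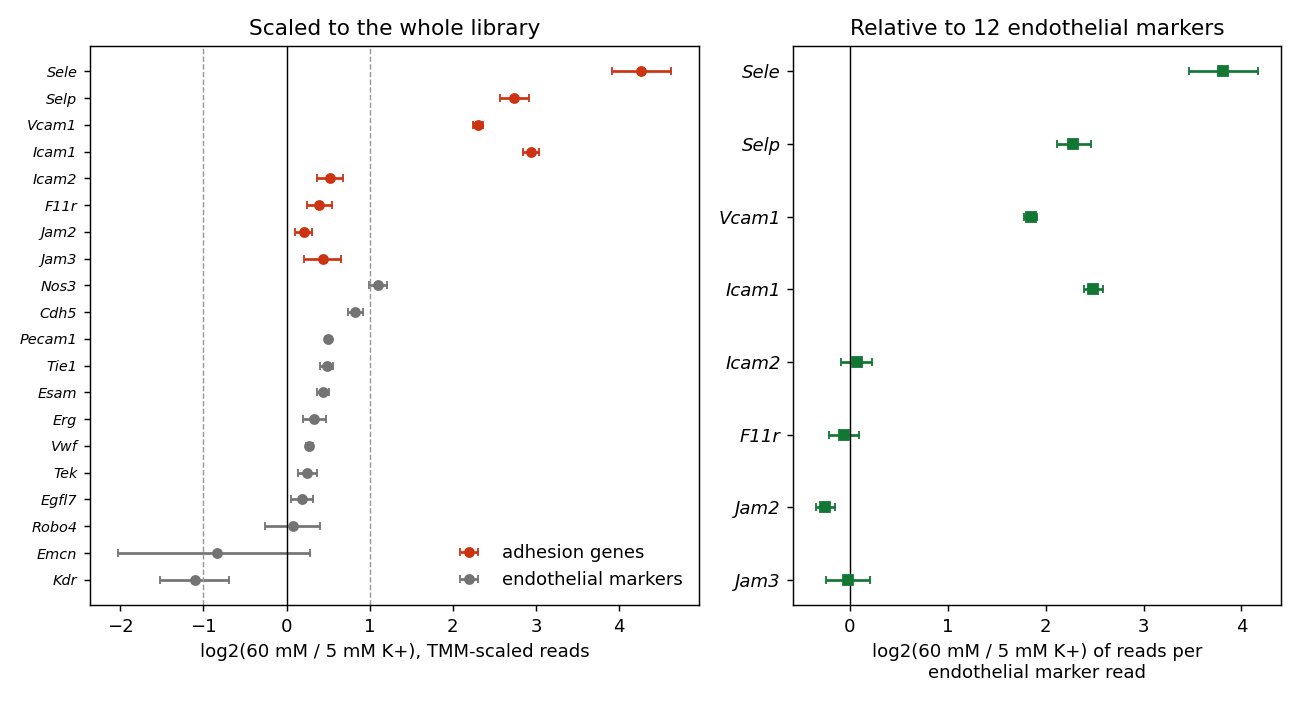
Left, log2(fold-change) of 60 mM over 5 mM K+ after TMM scaling for the 8 adhesion genes with at least 10 reads (red) and 12 endothelial markers (gray), with 95% counting intervals and dashed lines at -1 and 1. Right, the same genes as reads per endothelial marker read, where Icam2 (0.07), F11r (-0.06) and Jam3 (-0.02) lie at 0 and Sele (3.81), Icam1 (2.49), Selp (2.28) and Vcam1 (1.85) stay to the right.

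The make-up of the adhesion transcripts differed between the libraries. Summed over the 9 genes, FPKM rose from 387 to 1094, and the share of all counted reads that fell on them rose from 0.0687% to 0.234%. In control arteries Vcam1 took 24.9% of the summed FPKM, Icam2 19.6%, Jam2 19.2%, F11r 13.1% and Icam1 10.0%, while both selectins together took 6.37%. In depolarized arteries Vcam1 took 37.6%, Icam1 23.6% and Selp 11.8%, and Icam2 dropped to 8.61% and Jam2 to 6.79%. Sele, Selp, Vcam1 and Icam1 together went from 41.3% to 76.5%. Ordered by FPKM, control arteries had Vcam1 first, then Icam2 and Jam2, whose counting intervals overlapped (69.6 to 82.3 and 70.9 to 78.2), then F11r, Icam1, Jam3 and Selp, the last pair overlapping as well (23.2 to 29.2 and 19.9 to 24.9), and Sele and Madcam1 last. In depolarized arteries the order was Vcam1, Icam1, Selp, Icam2, Jam2, F11r, Sele, Jam3 and Madcam1, with no overlap between neighbors.

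Levels between genes rest on the gene lengths behind the FPKM. Recovered from the ratio of counts to FPKM, the length used for Selp was 1373 bases, compared with 4413 bases for the union of its exons in GENCODE vM1 (NCBIM37, mm9). For Sele both were 2912 bases, for Icam1 they were 2369 and 2540 and for Vcam1 2710 and 4917. With union exon lengths, a measure added after the data were seen, Selp lay at 40.1 and Sele at 39.2 FPKM-like units in depolarized arteries, and Icam1 at 241 passed Vcam1 at 227. F11r and Jam2 then lay at 26.2 and 26.1 in depolarized arteries, so that the lead of Jam2 over F11r in FPKM was lost. The annotation behind the deposited lengths is not given, so both lengths of a gene may come from unlike annotations. The fold-changes within a gene do not depend on these lengths.

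**Figure D3:**
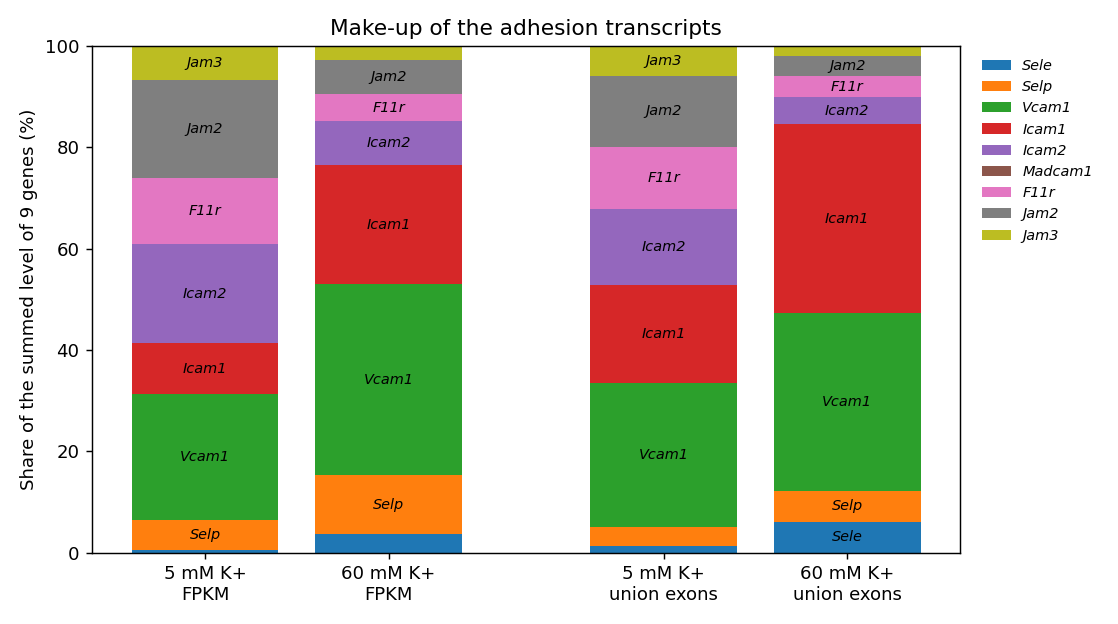
Share in percent of the summed level of the 9 genes taken by each gene in the 5 mM and 60 mM K+ libraries, from the deposited FPKM (left pair) and from reads per union exon length (right pair). Icam1 grows from 10.0% to 23.6% by FPKM and from 19.4% to 37.2% by union exon length, while Jam2 and Icam2 shrink in both.

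Both selectins that rose lie close together on chromosome 1, on mm9 with GENCODE vM1 positions: Sele from 165978365 to 165987808 and Selp from 166045395 to 166080157, both on the plus strand. Scyl3, upstream of Sele, had 173 and 179 reads (log2(fold-change) 0.15, counting interval -0.16 to 0.46), and Slc19a2, beyond F5, had 83 and 112 reads (0.53, 0.11 to 0.96). Neither was above 1, but only 5.54% of all genes were, so nothing is read from that. With fewer than 50 reads, F5 had 8 and 16 (1.10, counting interval -0.21 to 2.53). Likewise 2810422O20Rik had 12 and 17 (0.60, -0.55 to 1.80) and BC055324 had 13 and 4 (-1.60, -3.67 to 0.10). The antisense genes Gm16587 and Gm16548, within and at the end of Selp, rose from 1 to 37 and from 3 to 38 reads. They share 4.21% and 9.93% of the exon bases of Selp on the opposite strand, and counting by strand is not stated, so their reads cannot be told apart from those of Selp.

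Icam1 lies on chromosome 9 from 20820404 to 20833241 on the plus strand, followed by its relatives Icam4, from 20833817 to 20834975, and Icam5, from 20836482 to 20843480. Icam4, a red cell antigen, was at 0 in both libraries, and Icam5, known from neurons, had 2 and 9 reads. Mrpl4, on the other side, had 682 and 840 reads, a value of 0.40 in log2(fold-change). A long noncoding gene annotated on the opposite strand shares 19.3% of the exon bases of Icam1. It was not among the genes with deposited counts. Counting by strand is not stated, so reads from it cannot be told apart from those of Icam1. S1pr2, a receptor for sphingosine-1-phosphate upstream of Mrpl4, had 305 and 144 reads and a value of -0.98 (counting interval -1.28 to -0.69). The other genes are at single sites: Vcam1 on chromosome 3 from 115812938 to 115832606, Icam2 on chromosome 11 from 106238970 to 106249389, Madcam1 on chromosome 10 from 79127319 to 79131281, F11r on chromosome 1 from 173367666 to 173394734, Jam2 on chromosome 16 from 84774368 to 84826173, and Jam3 on chromosome 9 from 26904969 to 26963003.

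**Figure D4:**
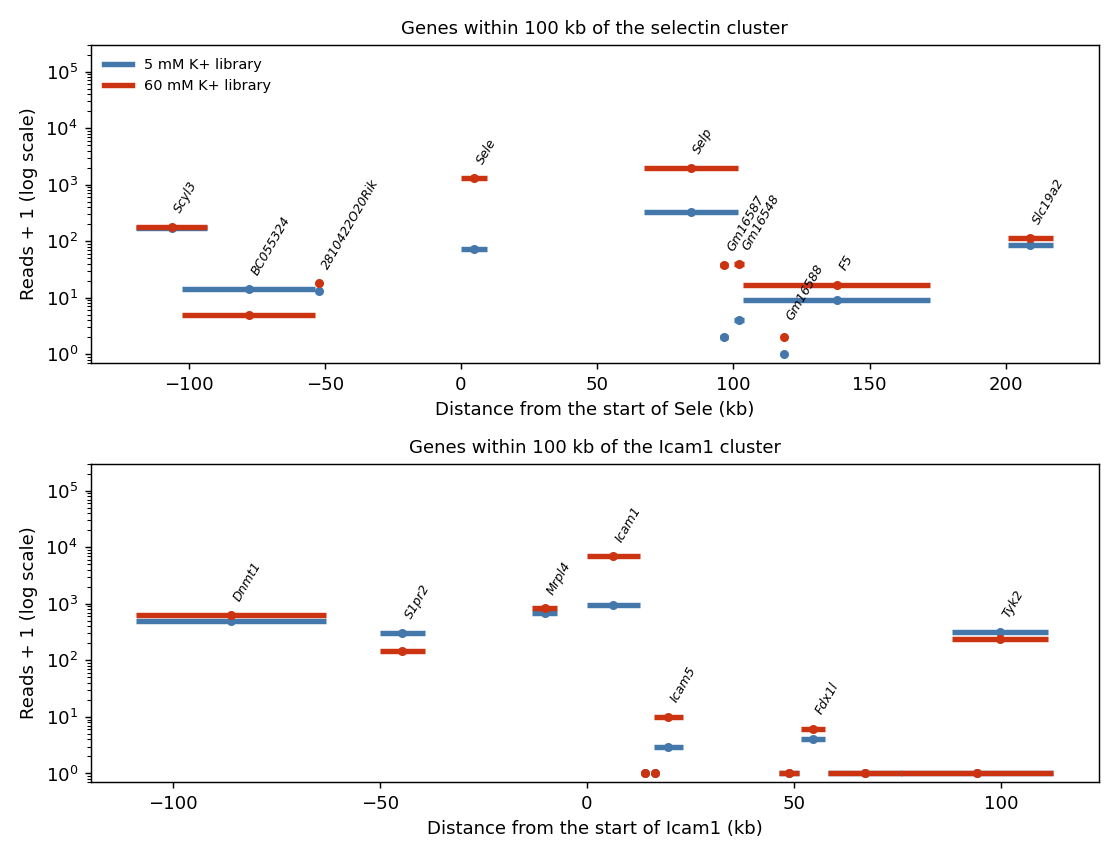
Reads plus 1 on a log axis for annotated genes within 100 kb of the selectins (top) and of Icam1 (bottom), drawn as bars over the extent of the gene in kb from the start of Sele or Icam1, in 5 mM (blue) and 60 mM K+ (red). Not every gene is drawn, and names of genes at 0 in both libraries are left out. Sele and Selp are far apart in the 2 libraries (72 and 1288, 321 and 1996 reads).

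Other genes of leukocyte adhesion and passage were described from lists by role. Of 79 named genes, 67 had at least 10 reads, and 4 of these (5.97%) were above 1 and 3 (4.48%) below -1, shares near those of all genes (5.54% and 5.86%). Their median log2(fold-change) was 0.02. The single lists below are small, so nothing is read from a count of 0 in any of them. Of the 4 genes above 1, Pvr and Rhbdf2 had over 50 reads, and Icam5 and Cxadr had 11 and 12 reads in both libraries together.

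Selectin ligands and their scaffolds ranged from 0 reads for Glycam1 to 7294 for Podxl in depolarized arteries. Selplg, the P-selectin ligand of leukocytes, had 11 and 5 reads. Podxl and Cd34, sialomucins of endothelium, had 6448 and 7294 and 3787 and 4404 reads, with log2(fold-change) of 0.28 and 0.32. Cd24a had 758 and 1400 reads (0.99, counting interval 0.86 to 1.12) and Cd44 had 218 and 377 (0.89, 0.65 to 1.14). Of the 8 ligands with at least 10 reads, 0 were above 1 and 1, Selplg, was below -1, compared with 5.86% of all genes. The counting interval of Selplg, -2.91 to 0.61, includes 0. Among the enzymes that build sugar ligands, Fut7, which adds the fucose of selectin ligands in leukocytes, had 0 reads and 1 read, and 8 of 11 enzymes had at least 10 reads, with none outside -1 to 1. The galactosyltransferase B4galt1 had the highest value, 0.76 (counting interval 0.66 to 0.86), with 1287 and 2032 reads.

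On the side of the integrins, the partners of ICAM-1 were nearly missing from these excised arteries, which had been flushed of blood. Itgb2, the beta2 chain, had 12 and 4 reads, Itgal had 8 and 6 and Itgam 9 and 1. Itga4, the alpha4 chain that binds VCAM-1, had 363 and 175 reads, or -0.95 in log2(fold-change) (-1.22 to -0.69 by counting error), and its partner Itgb1, which many cell types make, had 24005 and 25478 reads (0.19). Of the 6 integrin pathway genes with at least 10 reads, 0 were above 1 and 2, Itgam and Itgb2, were below -1. Itgam had 10 reads in both libraries together (-3.07, counting interval -8.52 to -0.22). Itgb2 had 16 (-1.48, -3.57 to 0.24), an interval that includes 0. With 5.86% of all genes below -1 and so few reads, nothing is read from this count.

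Of 14 other transmigration and junction genes with at least 10 reads, 1 was above 1. Pvr, a nectin-like receptor on endothelium that leukocytes bind, had 393 and 1216 reads, or 23.7 and 68.2 FPKM, and its log2(fold-change) of 1.73 lay within 1.57 to 1.90 by counting error. Cdh5, the VE-cadherin of endothelial junctions, was at 0.83 and Cldn5 at 0.67. Mcam and Bcam, abundant adhesion molecules of the vessel wall, were at 0.02 and 0.32. Of 11 linkers and signals below ICAM-1 and VCAM-1, none was outside -1 to 1. Rhog, a GTPase that acts below ICAM-1, had 403 and 748 reads (0.99, 0.82 to 1.17), and the focal adhesion adaptor Pxn had 1453 and 2644 (0.97, 0.87 to 1.06). Ezr, Rdx and Msn, which tie these receptors to actin, were at 0.57, -0.21 and -0.06.

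Adhesion molecules are cut from the cell surface by metalloproteinases. Adam17 had 565 and 467 reads (-0.17) and Adam10 had 992 and 844 (-0.13). Rhbdf2, which carries ADAM17 to the surface, had 505 and 1037 reads, or 1.14 in log2(fold-change) (0.98 to 1.30 by counting error), while its relative Rhbdf1 was at -0.07. The Weibel-Palade body genes, which serve the storage of P-selectin, stayed between -0.16 and 0.58, with Vwf at 10480 and 11820 reads (0.28) and Cd63 at 3373 and 4698 (0.58). Of these, 0 of 10 moved past 1 in either direction. With 5.54% of all genes above 1 and 5.86% below -1, nothing is read from that count.

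**Figure D5:**
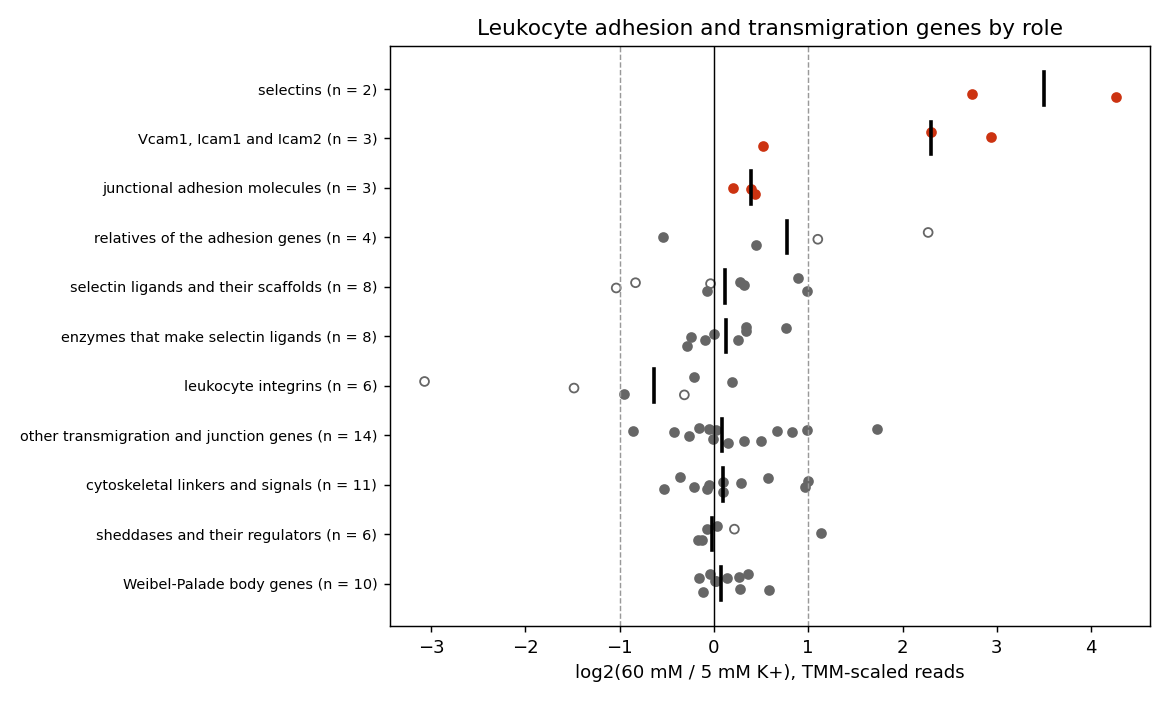
Log2(fold-change) of 60 mM over 5 mM K+ for each gene with at least 10 reads, by role, with the black bar at the median of each list. Red points are the adhesion genes, open points have fewer than 50 reads and dashed lines are at -1 and 1. The lists other than the selectins and Vcam1, Icam1 and Icam2 have medians between -0.63 and 0.77.

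Genes whose levels in both libraries lay nearest were found by the distance in log2 CPM over the 2 libraries. For Icam1 the nearest was the matrix protease Adamts4, at a distance of 0.255, with 1150 and 7004 reads. For Selp these were Adamts9 at 0.512 and the hexokinase Hk2 at 0.682. For Vcam1, Eprs at 0.547 and Socs3 at 0.609 were nearest, and their log2(fold-change) of 1.92 and 1.61 were below that of Vcam1. Sele had no near neighbor by this measure: Cxcl2 at 1.14 and Bcl3 at 1.22 were the nearest, with 2.98 and 2.65 in log2(fold-change).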

How the data were processed

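Mesenteric arteries were measured by poly(A) RNA-seq in 2 libraries. By the methods of the study, reads were aligned to mm9 with TopHat2, while the submitters' records name both mm8 and mm9. The build behind the counts is therefore uncertain. The authors deposited whole read counts per Ensembl gene, without normalization. The deposited FPKM values were scaled by the authors by gene length and total counts. The submitters' processing notes list TopHat2 2.0.12, HTSeq 0.6.1 and edgeR 3.0.8 without roles, and the annotation is not given in the sources used here. Of 55573 listed IDs, 32601 matched GENCODE vM1 (NCBIM37), holding 99.1% of the reads of each library.

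Scaling factors (TMM) came from edgeR 4.0.16, run under R 4.3.3. With 1 library per condition no test was run. Log2(fold-change) has 95% Clopper-Pearson intervals, and a count of 0 was entered as 0.5. Genes needed at least 10 reads in both libraries together. Ratios between genes have exact conditional intervals (SciPy 1.17.1). The intervals were also run on simulated libraries with counting error alone. Such libraries hold no spread between mice, and the outcome is not reported here. The alternatives were scaling by total counts, upper quartile, DESeq2 1.42.0, Ppia and Hprt, endothelial or smooth muscle markers, FPKM with pseudocounts, other filters and other thresholds.

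The 9 genes and all lists were chosen with earlier results of these data known. Genes named are the 9, genes of the lists (the most abundant, those past 1 with at least 50 reads and those of defining function) and the 2 nearest in level to each gene above 1. The neighborhood genes were added after their values were seen. Older symbols were matched through RefSeq synonyms, and Cd99 had no single ID. Protein sequences were not analysed here, and some genes of the lists are not reported here.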

Additional observations from a re-analysis of the deposited data

How the results depend on the processing

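No paired analysis was possible because a single library stood for each condition. The count of 4 adhesion genes above 1 and 0 below -1 stayed at 4 and 0 under each scaling, both FPKM settings and the filter of 1 CPM, and with the whole counting interval above 1. With no filter there were 5 above, the added gene being Madcam1 with 1 and 2 reads. With a threshold of 0.5 on the TMM values there were 5 above and 0 below. The added gene was Icam2 at 0.52, which was at 0.31 with total counts and 0.01 with Ppia and Hprt. The median over the adhesion genes, 1.41 with TMM, was 1.20 with total counts, 0.90 with Ppia and Hprt, 0.96 with endothelial markers, 1.28 with smooth muscle markers, 1.20 with both FPKM pseudocounts and 1.10 with no filter. Shifts against TMM of all genes alike were -0.21, -0.51, -0.45 and -0.13 for total counts, Ppia and Hprt, endothelial and smooth muscle markers. Over the alternative scalings and FPKM settings Sele ranged from 3.58 to 4.25, Selp from 2.23 to 2.73, Icam1 from 2.43 to 2.93 and Vcam1 from 1.79 to 2.29. The TMM values of 4.26, 2.74, 2.94 and 2.30 each lay just above these ranges, so TMM gave the largest difference for each of these genes. Of the pathway genes, 4 above 1 and 3 below -1 became 2 and 6 with total counts, and 2 and 0 with at least 50 reads. The shift explains the first by construction and fewer genes tested the second. In windows of 200 bases upstream only, the longer NF-kB form was left in 3 of 5 adhesion promoters (not in F11r or Icam1), and its share of all promoters was 14.9%. Without replicates these settings show nothing of the spread between mice.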

Other observations

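Genes of other cell types in the artery wall differed in size and direction. Of 6 fibroblast markers, with at least 560 reads each in both libraries, 0 were past 1 in either direction, with Dcn at 15129 and 13424 reads and a median log2(fold-change) of -0.18. Lymphatic endothelial markers had a median of -0.62 over 6 genes. Lyve1, which lymphatic endothelium and resident macrophages share, had 318 and 135 reads (-1.13, counting interval -1.44 to -0.84), while Pdpn, also on that list, had 203 and 340 (0.85). Hemoglobin genes were low, with 908 reads over 5 red blood cell genes in control and 538 in depolarized arteries. The mesothelial markers had 4 and 6 reads in all, with 4 of 6 at 0 in both libraries.

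Within the endothelial list, Nos3, the endothelial nitric oxide synthase, had 1013 and 2025 reads (1.10, counting interval 0.99 to 1.21), whereas Kdr, a receptor for VEGF, had 168 and 73 (-1.10, -1.52 to -0.70). Among smooth muscle markers Tagln had 314 and 387 reads, far below the 15558 and 18154 reads of Cnn1, and how reads were divided between Tagln and genes beside it is uncertain.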
